A study of Drosophila melanogaster with 16 samples.

Results

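The comparison described here is that of male and female TRAP libraries from fru P1-expressing cells of adult Drosophila melanogaster heads: 4 male and 4 female TRAP libraries, 8 of the 16 libraries of the series. In TRAP, translating ribosome affinity purification, mRNA is recovered with ribosomes that hold RpL10A, a large-subunit protein fused to GFP. Both sexes carried the same transgenes in a w background (w over w in females, w over Y in males): an insertion of UAS-Gal4 opposite an insertion of UAS-GFP::RpL10A, each marked with w+mC, and fru P1-Gal4 over a + chromosome, so that fru P1-Gal4 set which cells held tagged ribosomes. Male TRAP was replicates 1, 2, 4 and 5 and female TRAP was replicates 2, 3, 4 and 5, each made from whole heads of about 1000 pooled, sex-sorted flies aged 10-12 days, and the remaining 8 libraries hold total mRNA of the same kind of head lysate.

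The fru gene (fruitless) is the neural branch of the somatic sex determination pathway of the fly. Sxl protein, present in females, directs female splicing of tra mRNA, and Tra protein with Tra2 then directs female splicing of dsx and of the fru transcripts that start at the P1 promoter. In males the P1 transcripts are spliced to the male form and encode male-specific Fru transcription factors, which are needed for courtship, while the female form is not known to yield a functional sex-specific protein. The cells that use the P1 promoter exist in both sexes and differ between them in number and in shape.

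Values are exon read counts scaled to library size (CPM, counts per 1e+06 counts) with TMM factors over the 16 libraries, and they are listed by replicate in the order given above. A fold change is the log2 ratio of male over female TRAP. An exon was called at FDR under 0.2 in the exact test of edgeR, among exons above 2 CPM before TMM scaling in at least 5 of the 8 libraries, and a gene was called when at least 1 of its exons was. Counts summed to between 15353672 and 25419045 per TRAP library, and 3 counts, taken as the limit that a count of 0 allows, correspond to 0.118 to 0.195 CPM over the series. Spearman's rho over exons was 0.920 to 0.970 for pairs of TRAP libraries of 1 sex and 0.899 to 0.965 for pairs of opposite sex. All coordinates are on dm6.

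The labels were checked against genes that must differ between the sexes. The male-specific lncRNA:roX1 was at 117 CPM or more in each male TRAP library and at 12.0 CPM or less in each female one, and the female yolk protein gene Yp1 was at 498 CPM or less in each male TRAP library and at 5744 CPM or more in each female one. The 27 Y-linked exon entries that were looked up all lay at or under 0.111 CPM in the TRAP libraries, and no Y-linked exon entered the test. RpL10Ab, the endogenous gene of the tagged protein, had 1428, 1848, 2063 and 1291 CPM in male TRAP and 1877, 1693, 2623 and 2351 CPM in female TRAP in an exon at chr3L:11823658-11824211. The sexes overlapped there, and the exon was not called (log2 fold change -0.32, FDR = 0.733). Neuron markers summed to 2533-3050 CPM in male and 2503-3586 CPM in female TRAP, above every total mRNA library (1394-2177 in males and 1177-1585 in females). Markers of cells outside the nervous system were also present in TRAP and are given beside the results they move with.

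Sex differences were called in 751 of 32913 exons tested (2.28%), 402 higher and 349 lower in male than in female TRAP. They fell in 372 of 8473 genes (4.39%). Of these, 179 genes (2.11%) were higher and 194 (2.29%) lower in males, with Sxl counted on both sides. The change was at least 2-fold in a called exon of 91 higher and 82 lower genes. A single exon carried the call in 90 of the higher and 105 of the lower genes, and those genes had only 1 tested exon in 37 and 41 cases. In 500 of the 751 called exons the male and female libraries did not overlap, against 1295 of all tested exons (3.93%). By annotation 345 of the called genes were protein coding, 21 non-coding RNAs and 4 pseudogenes. The kit does not mark strand, and 134 called exons overlap another gene, so reads of such pairs cannot be told apart. The male share of the calls depended on the scaling, with 258 higher and 134 lower genes (65.8% higher) when library totals alone were used, against 48.0% higher with TMM factors. Single libraries also moved these counts by more than 1.5 times. The number of higher genes was 107 without male replicate 1, 273 without female replicate 2, 370 without female replicate 3, 99 without female replicate 4 and 109 without female replicate 5. The number of lower genes was 87, 126, 105 and 383 without male replicate 1, 2, 4 and 5, and 419, 123 and 99 without female replicate 2, 4 and 5.

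**Figure D1:**
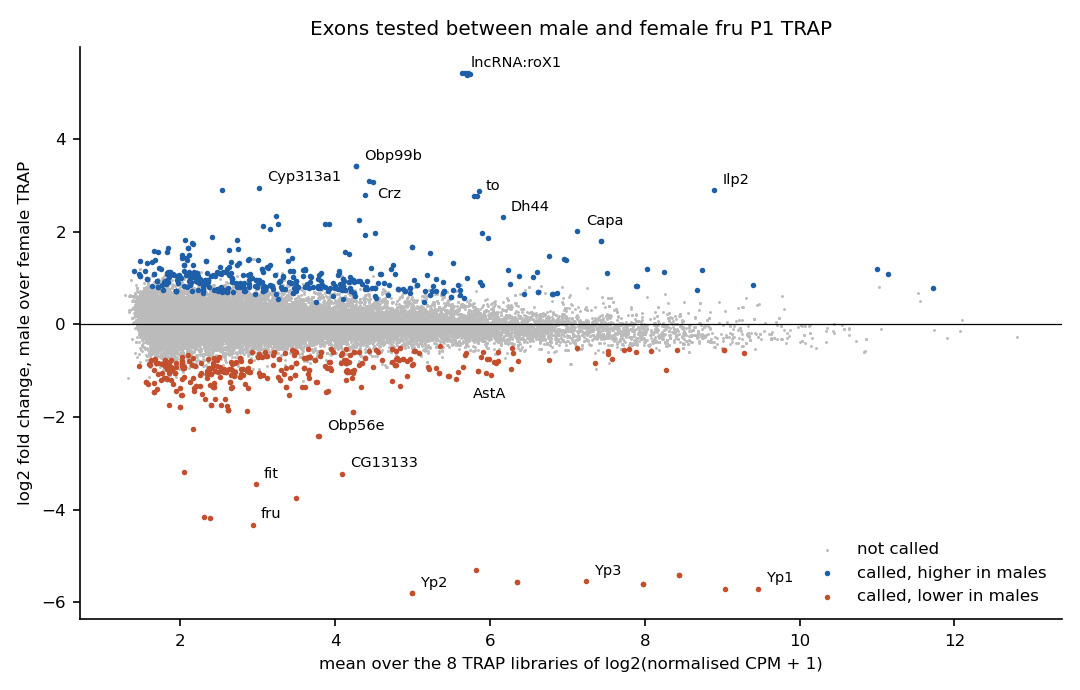
Each point is 1 of the 32913 tested exons, with its mean level over the 8 TRAP libraries on the horizontal axis (log2 of normalised CPM + 1) and its log2 fold change, male over female TRAP, on the vertical axis. The 402 called higher exons (blue) include lncRNA:roX1 at 5.42 and Ilp2 at 2.90, and the 349 called lower exons (red) include the yolk protein genes below -5 and the female fru exon at -4.32.

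At the sex determination genes the difference with the lowest p was in fru itself. The P1 exon that carries the sex-specific splice site is listed as a longer entry at chr3R:18513451-18515343 (5′ UTR and coding), which includes the part kept only in the female form, and a shorter entry at chr3R:18515052-18515343 that begins at the same 5′ end. The longer entry had 1.495, 0.999, 1.73 and 0.754 CPM in male TRAP and 23.9, 19.0, 25.7 and 35.3 CPM in female TRAP. Every male library lay under 2 CPM and every female one at 19.0 CPM or more, a log2 fold change of -4.32 ± 0.271 (SE, FDR = 1.49e-47). It entered the test through the 4 female libraries and male replicate 4. In total mRNA the same entry averaged 0.723 CPM in males and 5.01 CPM in females.

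The shorter fru entry, which also takes reads of the part that both forms share, had 1.06, 0.892, 1.38 and 0.545 CPM in male TRAP and 3.83, 3.87, 5.64 and 5.90 CPM in female TRAP. It was above the minimum of 2 CPM in the female libraries only, and its log2 fold change of -2.27 is given as a description with no test, since an exon kept for its level in 1 sex had to differ. The first exon of the P1 transcripts at chr3R:18545113-18545586 stayed below the filter, with 0.836, 0.964, 0.623 and 0.545 CPM in male and 2.09, 1.71, 1.77 and 1.08 CPM in female TRAP. The sexes did not overlap in that exon (two-sided exact permutation p = 0.0286, the smallest that 4 against 4 allows). Of the 10 tested fru exons 3 were lower in males and 0 higher. The 3′ terminal exon at chr3R:18414273-18417300 was not called and overlapped between the sexes, with 72.8, 92.4, 72.3 and 54.4 CPM in male and 57.5, 33.4, 54.6 and 63.5 CPM in female TRAP (log2 fold change 0.53, FDR = 0.365). Besides the longer entry, the called fru exons were coding exons further 3′. The exon at chr3R:18435370-18435570 had a log2 fold change of -1.19 (FDR = 0.00977) without overlap between the sexes. The exon at chr3R:18434235-18435062 had -0.98 (FDR = 0.0295) with overlap.

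The dsx exons showed both splice forms at low level. The male-specific exon at chr3R:7930171-7930687 had 3.87, 3.07, 3.15 and 3.81 CPM in male TRAP and 0.155, 0.166, 0.399 and 0.737 CPM in female TRAP. The female-specific exon at chr3R:7934482-7935653 had 0.528, 0.321, 0.0346 and 0.293 CPM in male and 2.28, 2.43, 3.64 and 2.50 CPM in female TRAP. The libraries of the sexes did not overlap in either exon. Each was above 2 CPM in 1 sex only, so the log2 fold changes of 3.31 for the male and -3.21 for the female exon carry no test. A further male exon at chr3R:7924323-7925360, which overlaps the gene lds, likewise reached 2 CPM in males only, with a log2 fold change of 2.07. The exon at chr3R:7959752-7961122, common to both forms, had 2.02, 1.82, 2.15 and 2.68 CPM in male and 0.968, 2.43, 2.62 and 1.64 CPM in female TRAP and was not called (0.24, FDR = 0.927).

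Sxl, the switch at the top of the pathway, was the only gene with exons called in both directions, 10 higher and 4 lower in males of 19 tested. Several of these entries share bases. The long 3′ exon at chrX:7074550-7079367 had 65.9, 60.5, 39.5 and 52.6 CPM in male and 98.9, 96.2, 119 and 124 CPM in female TRAP, a log2 fold change of -0.96 ± 0.171 (SE, FDR = 0.000186). Upstream, the exon at chrX:7085619-7085978 had 6.16, 4.64, 4.395 and 6.24 CPM in male and 2.17, 4.31, 1.48 and 2.16 CPM in female TRAP (1.11, FDR = 0.0693), and it overlaps the microRNA gene mir-4956. Each of the 2 exons separated the sexes, in opposite directions. For tra, whose female splice form makes the Tra protein, none of the 4 tested exons was called. Its exon at chr3L:16590352-16590930 had 16.6, 17.95, 18.2 and 14.2 CPM in male and 14.1, 15.9, 15.5 and 15.99 CPM in female TRAP (0.16, FDR = 0.891).

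**Figure D2:**
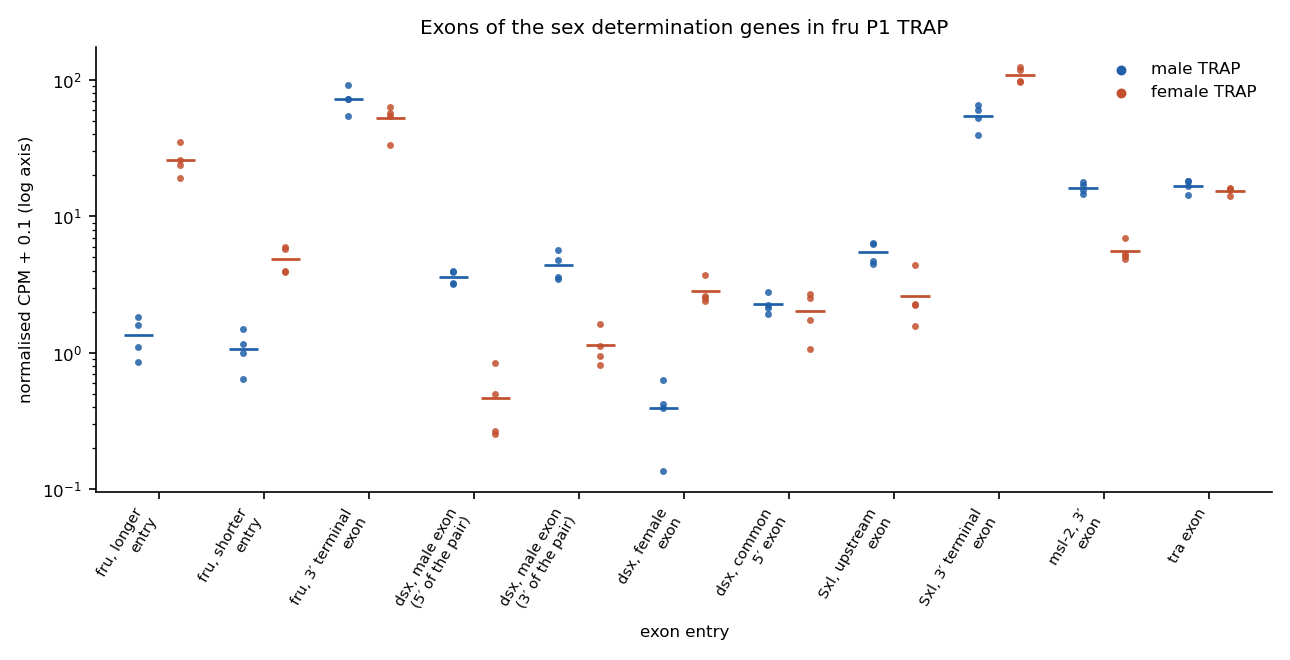
Normalised CPM + 0.1 on a log axis for exons of fru, dsx, Sxl, msl-2 and tra, with each point a TRAP library, male TRAP left of female TRAP. The longer fru entry lies at 0.754-1.73 CPM in male and 19.0-35.3 CPM in female TRAP, the male and female exons of dsx separate in opposite directions, and the fru 3′ terminal exon, the common dsx exon and tra overlap.

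The test of exon shares, which sets each exon against the rest of its gene, was run on 30096 exons of 6370 genes. It called 5 exons (0.0166%) at FDR under 0.05, in 3 genes, with 317 exons at an unadjusted p under 0.05. The 2 fru entries had log2 share differences of -4.15 (FDR = 3.98e-19) for the longer and -2.07 for the shorter. In dsx the female-specific exon differed by -3.60 and a male-specific exon by 2.92. The fifth exon was in CG11151, at chrX:13741684-13741952, with 1.10, 1.18, 1.42 and 1.05 CPM in male and 2.44, 2.76, 4.38 and 4.03 CPM in female TRAP and a share difference of -1.71. Apart from the longer fru entry, these exons reached 2 CPM in 1 sex only, so that they were admitted by a difference in level and their calls are no independent evidence of it. The longer fru entry met the filter in the 4 female libraries and male replicate 4, so its female level alone would have admitted it too. The CG11151 exon overlaps an exon of Grip91, so its reads could belong to either gene. Only fru was called with each of the 8 TRAP libraries left out in turn, and dsx was lost without male replicate 2, 4 or 5 and without female replicate 2, 3 or 4. These runs kept exons above 2 CPM in at least 4 remaining libraries. The CG11151 exon thus left the test without any 1 of the 4 female libraries, and its loss there is no result. The dsx exon of each sex likewise left the test when a library of that sex was left out. The dsx exon of the other sex still met the filter there, and in the runs that lost dsx it was not called either. It was then set against fewer dsx exons. The next genes in order of p did not pass: Ggamma30A (0.93, FDR = 0.0569), Sxl (1.59, FDR = 0.0594), sno (-1.61, FDR = 0.0569), ITP (-1.21, FDR = 0.265), Grip91, CG2124 and Mob2.

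Of the 7 tested genes of dosage compensation, by which the single male X is transcribed at a higher rate, 2 were higher in male TRAP and 0 lower, with a median log2 fold change of 0.02 against -0.05 over all genes with 1 exon each. The lncRNA:roX1 exon at chrX:3858896-3861950, a non-coding RNA of the male X-chromosome complex, had 744, 284, 117 and 247 CPM in male TRAP and 5.65, 11.2, 4.84 and 12.0 CPM in female TRAP. All male libraries were far above all female ones, although the male values spread widely, and the log2 fold change was 5.42 ± 0.556 (SE, FDR = 4.14e-19), or 4.70 without male replicate 1. Its log2 fold change in total mRNA was 5.38. The partner RNA lncRNA:roX2 was under the minimum in all female libraries, with 20.9, 7.75, 4.98 and 8.67 CPM in male and 0.116, 1.05, 0.455 and 0.624 CPM in female TRAP (log2 fold change 4.27, with no test, since the exon was kept for its male level). The complex subunit gene msl-2, whose translation Sxl blocks in females, had 17.7, 17.0, 15.6 and 14.5 CPM in male and 6.85, 4.75, 5.18 and 4.99 CPM in female TRAP at chr2L:3462218-3463654. Its libraries did not overlap, all 3 tested entries were higher, and the log2 fold change was 1.60 ± 0.182 (SE, FDR = 5.36e-12), against 0.81 in total mRNA (FDR = 0.000764).

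By chromosome the X held the largest share of called genes, 8.30% of 1445, with 39 higher and 82 lower in males and a median log2 fold change of -0.08. The share was 2.77% on 2L, 3.95% on 2R, 2.95% on 3L and 4.35% on 3R. On the fourth chromosome 1 gene was higher and 2 lower of 81, and the median there was 0.20. These shares are a description, since genes are not replicates.

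Of the gene lists examined, neuropeptide genes held 20 of the called genes. Neuropeptides are short secreted signals cut from precursor proteins, and many act as brain hormones. Of 48 listed genes, 47 were in the files and 31 were tested in TRAP. In males 15 were higher and 5 lower, where 2.11% and 2.29% of all genes were, and the median log2 fold change was 0.46 against -0.05 over all genes. In total mRNA 9 of 29 tested members were higher in males and 0 lower, with a median of 0.27, beside 17.9% of all genes higher and 17.4% lower. In these bulk samples, fewer cells of a type and less RNA per cell cannot be told apart.

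Several of the genes higher in males encode peptides of neurosecretory cells. Crz encodes corazonin, a peptide related to the gonadotropin-releasing hormones, and its exon at chr3R:14315360-14315716 had 59.0, 70.3, 71.1 and 36.5 CPM in male TRAP and 5.19, 5.42, 8.996 and 9.41 CPM in female TRAP. The lowest male library, replicate 5, was well above the highest female one, and the log2 fold change was 3.08 ± 0.243 (SE, FDR = 7.84e-29). In total mRNA Crz averaged 7.51 CPM in males and 7.81 CPM in females.

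Ilp2, Ilp3 and Ilp5 encode insulin-like peptides of the insulin-producing cells of the brain. The Ilp2 exon at chr3L:9800000-9800440 had 1087, 1327, 1678 and 1097 CPM in male TRAP and 190.2, 142, 177 and 207 CPM in female TRAP, so that every male library exceeded every female one (2.90 ± 0.203, SE, FDR = 3.38e-39). Its total mRNA means were 49.2 CPM in males and 50.6 CPM in females. The female total mRNA libraries had 31.6, 29.96, 22.9 and 118 CPM (replicates 2 to 5), so that replicate 5 raised their mean. The male ones had 27.0, 76.2, 59.2 and 34.5 CPM (replicates 1 to 4). Ilp3 had 97.9, 122, 140.2 and 99.9 CPM in male and 27.4, 29.0, 34.8 and 29.9 CPM in female TRAP. Ilp5 had 43.1, 51.5, 55.6 and 24.2 CPM in male and 12.2, 8.68, 14.6 and 10.2 CPM in female TRAP. Both separated the sexes, each with a log2 fold change of 1.97 (FDR = 9.72e-26 for Ilp3 and 1.05e-11 for Ilp5). In total mRNA Ilp3 averaged 4.34 CPM in males and 5.62 CPM in females, and Ilp5, at 1.89 and 2.30 CPM, was not tested. Female total mRNA replicate 5 was again the highest for Ilp3, at 10.1 CPM against 3.82-4.52 CPM in the other female libraries.

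Dh44, a diuretic hormone related to corticotropin-releasing factor, had 161, 174, 185 and 107 CPM in male TRAP and 30.8, 27.4, 32.2 and 39.5 CPM in female TRAP at chr3R:9648983-9650706. Capa, which encodes osmoregulatory peptides, had 262, 319, 321 and 209 CPM in male and 57.5, 57.0, 87.1 and 85.5 CPM in female TRAP. The groups lay apart in both genes, with log2 fold changes of 2.32 ± 0.185 (SE, FDR = 1.25e-26) for Dh44 and 2.001 ± 0.186 (SE, FDR = 7.43e-20) for Capa. Dsk, the sulfakinin gene related to vertebrate cholecystokinin, had 119, 149.8, 133 and 71.4 CPM in male and 36.3, 31.8, 33.5 and 30.8 CPM in female TRAP. ITP, the ion transport peptide gene, had 55.3, 57.5, 59.97 and 43.8 CPM in male and 17.5, 16.2, 18.2 and 18.6 CPM in female TRAP. Neither overlapped, with log2 fold changes of 1.87 (FDR = 2.19e-14) for Dsk and 1.66 (FDR = 7.43e-20) for ITP.

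Smaller male-higher differences without overlap were those of Hug, whose peptides act in feeding circuits (1.33, FDR = 3.16e-06), natalisin, a peptide of mating behaviour (0.95, FDR = 0.00844), NPF, the fly relative of neuropeptide Y (0.84, FDR = 0.000998), and AstC (0.82, FDR = 0.0991). Hug had 69.3, 81.5, 90.7 and 44.99 CPM in male and 34.2, 21.3, 29.1 and 32.3 CPM in female TRAP. NPF had 64.1, 73.0, 63.7 and 48.8 CPM in male and 30.2, 30.5, 43.8 and 39.9 CPM in female TRAP. Trissin (0.93, FDR = 0.0278), Ms (0.69, FDR = 0.116) and Dh31 (0.65, FDR = 0.122) were called although their groups overlapped, with male replicate 5 among the female libraries in each. With a library left out the FDR reached 0.439 for AstC, 0.203 for Trissin, 0.563 for Ms and 0.657 for Dh31. In every male-higher neuropeptide gene whose 8 values are given here except Ilp2 and Ilp3, male replicate 5 was the lowest of the male libraries.

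The 5 neuropeptide genes lower in males all had groups that lay apart, and 3 were called without male replicate 1 or female replicate 5. AstA, the allatostatin A gene, had 30.5, 33.8, 34.3 and 23.2 CPM in male TRAP and 62.3, 59.1, 89.0 and 75.3 CPM in female TRAP at chr3R:24760530-24761328, with a log2 fold change of -1.18 ± 0.162 (SE, FDR = 6.70e-08). CCHa1 had 3.61, 4.21, 4.64 and 3.10 CPM in male and 6.78, 8.95, 11.7 and 14.5 CPM in female TRAP (-1.37, FDR = 2.35e-05). The others were Proc, the proctolin gene (-0.75, FDR = 0.0239), Mip (-0.61, FDR = 0.0769) and Orcokinin (-0.58, FDR = 0.0258). Their FDR reached 0.214 for Proc, 0.444 for Mip and 0.231 for Orcokinin with a library left out. Orcokinin had 19.3, 20.8, 23.3 and 22.1 CPM in male and 31.3, 31.9, 35.9 and 33.0 CPM in female TRAP. The 11 tested members that were not called had log2 fold changes from -0.30 to 0.46 and were sNPF, Nplp1, Nplp3, spab, FMRFa, CCHa2, Gpb5, Pdf, Tk, Ilp6 and Lk. Pdf, the peptide of the clock neurons, had 0.43 (FDR = 0.389) in TRAP and 0.94 in total mRNA, where it was called.

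**Figure D3:**
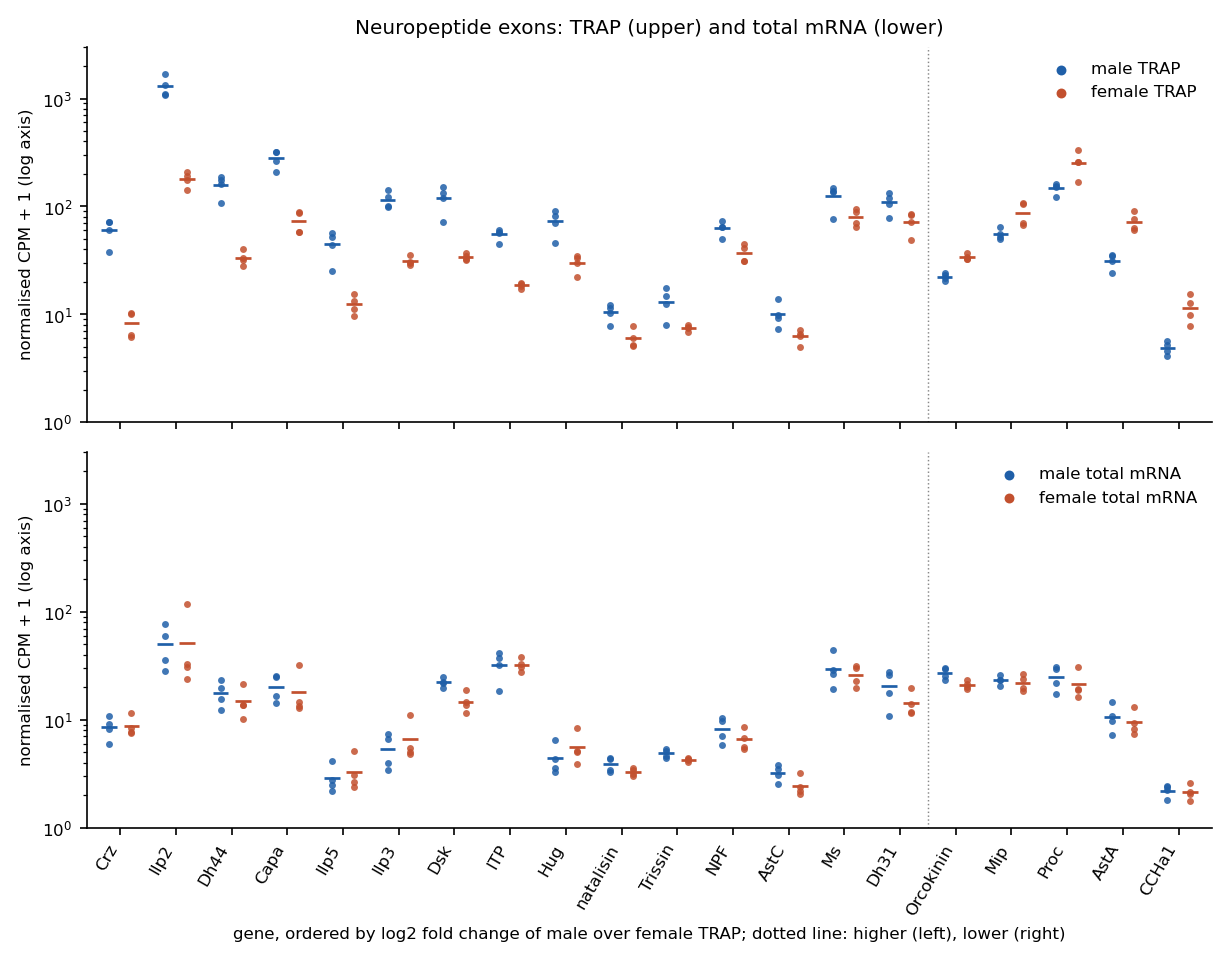
Normalised CPM + 1 on a log axis for the 20 neuropeptide genes called between male and female TRAP, TRAP libraries in the upper and total mRNA libraries in the lower panel, male left of female, each point a library. The 15 genes left of the dotted line are higher in male TRAP (Crz at 36.5-71.1 CPM in male and 5.19-9.41 CPM in female TRAP) and the 5 right of it are lower, while in total mRNA Crz averages 7.51 CPM in males and 7.81 CPM in females.

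Whether the sex difference itself differed between TRAP and total mRNA was tested as an interaction of sex and fraction over the 16 libraries. It was called in 16 of 28628 exons (0.0559%), in 11 of 7974 genes (0.138%), and 7 of the 11 genes were neuropeptide genes. Crz had the lowest p, with an interaction log2 of 3.08 ± 0.362 (SE, FDR = 0.00121), and was the only gene under an FDR of 0.05. Ilp2 (3.14 ± 0.511, in its first exon at chr3L:9799698-9799926), Ilp3 (2.30 ± 0.413), Dh44 (1.999 ± 0.338) and ITP (1.62 ± 0.280) each had FDR = 0.0592. These 5 genes were called in the interaction with each TRAP library left out in turn. The number of exons was 10 without male TRAP replicate 1, 2 or 4 and without female TRAP replicate 4. No total mRNA library was left out, so the dependence of the interaction on those libraries was not tested. Female total mRNA replicate 5 was the highest of its group for Crz, Ilp2, Ilp3 and Dh44, but not for ITP. In the first exon of Ilp2 it had 18.4 CPM, against 6.52 CPM or less in the other female total mRNA libraries. Capa followed with 1.62 ± 0.324 (FDR = 0.131). With the replicate number as a block within each sex, 66 exons in 42 genes were called, which included the 11 genes and brought the neuropeptide genes to 10. In Orcokinin the interaction was negative, -1.01 ± 0.190 (FDR = 0.0852), since its TRAP level was lower in males and it averaged 26.2 CPM in male and 20.05 CPM in female total mRNA.

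The other 4 interaction genes are not neuropeptide genes. CG5160 had 23.3, 36.6, 36.5 and 22.1 CPM in male and 5.38, 4.86, 7.69 and 9.30 CPM in female TRAP (2.17 ± 0.226, SE, FDR = 6.96e-16), with total mRNA means of 5.08 CPM in males and 5.05 CPM in females and an interaction of 2.13 (FDR = 0.0678). CG42394 had 1.13 in TRAP and -0.09 in total mRNA, an interaction of 1.24 (FDR = 0.12). SerT, the serotonin transporter, had 20.5, 27.7, 23.9 and 20.02 CPM in male and 33.8, 33.8, 55.6 and 48.7 CPM in female TRAP, so that all male libraries were lower (-0.85, FDR = 0.00253), while in total mRNA it was higher in males (0.46, FDR = 0.0875). Its interaction was -1.31 ± 0.258 (SE, FDR = 0.12). In cv-c the TRAP libraries were not called (0.45, FDR = 0.549) and the interaction of 1.28 (FDR = 0.149) came with a log2 fold change of -0.82 in total mRNA.

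Over all genes the total mRNA comparison called far more, 2939 of 8408 genes (35%). Of the 179 genes higher in male TRAP, 133 were also called higher and 7 called lower in male total mRNA, and 9 were not tested there. Of the 194 lower in male TRAP, 113 were called lower and 15 higher in male total mRNA, and 23 were not tested. Among exons, 351 of the 371 higher ones that were tested in total mRNA had the same sign there, with medians of 0.94 in TRAP and 0.41 in total mRNA. For the lower exons it was 233 of 285, with medians of -0.96 and -1.01.

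**Figure D4:**
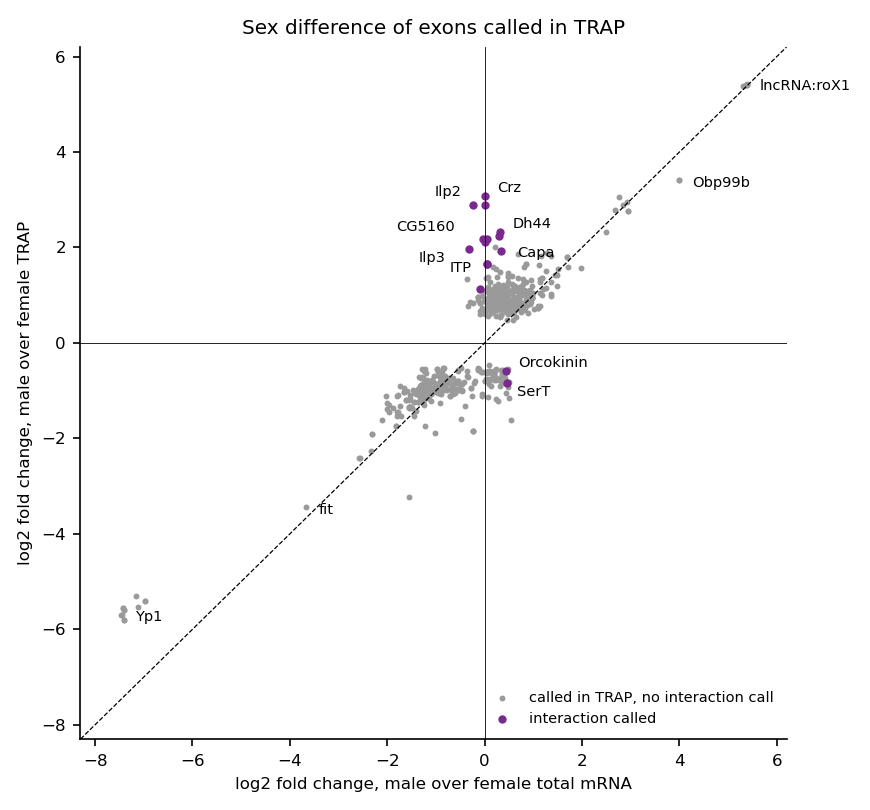
Log2 fold change, male over female, in TRAP (vertical axis) against that in total mRNA (horizontal axis) for exons called in TRAP and tested in both, with exons called in the interaction in purple and the dashed line marking equal values. The yolk protein genes and lncRNA:roX1 lie far out in both fractions, whereas Crz (3.08 in TRAP, 0.00 in total mRNA) and Ilp2 (2.90 and 0.00) lie near 0 on the horizontal axis. The Ilp2 value in total mRNA includes female replicate 5 at 118 CPM, against 22.9-31.6 CPM in the other female libraries.

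Counts in the lists of receptors and other neuronal genes are to be read beside the 2.11% of all genes that were higher and the 2.29% that were lower in males. Of 29 tested neuropeptide receptor genes 0 were higher and 1 was lower in male TRAP, the relaxin-family receptor gene Lgr3 (1.63, 3.03, 1.49 and 1.42 CPM in male and 3.80, 3.26, 4.38 and 3.91 CPM in female TRAP, -0.98, FDR = 0.0483). All female libraries exceeded 2 CPM in Lgr3, but of the male ones only replicate 2 did. The exon thus entered the test mainly through its female level. It was tested in only 3 of the runs with a library left out, where its FDR reached 0.246. Among 13 genes of monoamine synthesis and transport 1 was higher, the histidine decarboxylase gene Hdc (0.71, FDR = 0.151), and 3 were lower: SerT, the vesicular monoamine transporter gene Vmat (-1.06, FDR = 0.112) and the dopamine transporter gene DAT (-0.77, FDR = 0.0688). Vmat and DAT overlapped between the sexes, and in each gene female replicates 4 and 5 were well above the male libraries while female replicate 3 was not. Without female replicate 5 Vmat was not called (-0.70). The FDR reached 0.434 for DAT and 0.538 for Hdc with a library left out. By the most abundant exon of each gene, the monoamine synthesis and transport list ran from -0.85 to 0.71. The Vmat value thus came from another exon. Of 15 monoamine receptor genes, DopEcR, which encodes a receptor for dopamine and ecdysone, was higher (1.01, FDR = 0.0825). In the most abundant tested exon of each gene the highest value of that list was 0.29, so the DopEcR call came from another exon. With a library left out its FDR reached 0.428.

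Among transcription factors of courtship neurons and Fru cofactors 1 of 10 was called, acj6, a POU-domain factor of olfactory neurons. It had 10.1, 12.0, 9.21 and 8.001 CPM in male and 15.8, 14.9, 21.7 and 24.0 CPM in female TRAP, with all male libraries lower (-0.91, FDR = 0.00199). By the most abundant exon of each gene this list ran from -0.83 to 0.36, so the acj6 value came from another exon. Of 23 voltage-gated and potassium channel genes Irk2 (1.01, FDR = 0.0466) and Shab (0.91, FDR = 0.187) were higher and Sh (-1.12, FDR = 0.0136) was lower. In the most abundant tested exon of each gene this list ran from -0.27 to 0.48, so these calls came from other exons. With a library left out the FDR reached 0.659 for Shab, 0.210 for Irk2 and 0.113 for Sh. In the dpr and DIP family of cell-surface proteins, which bind each other at synapses, 0 of 30 were higher and 2 lower, DIP-beta (-0.72, FDR = 0.0398) and dpr8 (-0.90, FDR = 0.114). By the most abundant exon of each gene this family ran from -0.72 to 0.32, so the dpr8 value came from another exon. The beat and side adhesion list held 1 lower gene of 22, beat-Vc (-0.62, FDR = 0.113). The nicotinic receptor list held 1 lower of 10, nAChRalpha3 (-0.66, FDR = 0.196), and the synaptic vesicle and active zone list 1 lower of 24, Rim (-0.67, FDR = 0.133). By the most abundant exon of each gene the latter list ran from -0.27 to 0.19, so the Rim call came from another exon. With a library left out the FDR reached 0.636 for Rim, 0.586 for nAChRalpha3, 0.539 for beat-Vc, 0.629 for dpr8 and 0.235 for DIP-beta. No member was called among 14 GABA and glutamate receptor genes, 8 genes that mark cholinergic, glutamatergic or GABAergic neurons, 12 genes of the ecdysone response, 6 activity-regulated transcription factors, 11 clock genes and 16 heat shock genes. Of 6 juvenile hormone genes the epoxide hydrolase gene Jheh3 was higher (1.11, FDR = 0.0416).

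The female yolk protein genes were among those with the largest fold changes. Yolk proteins are made by the fat body and the ovary of females and taken up by eggs, and fat body lines the head. Yp1 had 4.97, 48.5, 79.8 and 498 CPM in male TRAP and 5744, 9199.5, 9752 and 9653 CPM in female TRAP at chrX:10054214-10055498. Yp2 had 0.352, 1.07, 1.87 and 17.2 CPM in male and 193, 271, 424 and 314 CPM in female TRAP, and Yp3 had 4.22, 10.3, 14.1 and 87.8 CPM in male and 870.1, 1484, 1701 and 1589 CPM in female TRAP. Every female library was above every male one, and male replicate 5 was far above the other male libraries in all 3 genes. The log2 fold changes were -5.70 ± 1.02 for Yp1 (SE, FDR = 4.66e-06), -5.80 ± 0.893 for Yp2 (FDR = 1.51e-06) and -5.54 ± 0.805 for Yp3 (FDR = 3.40e-09), and without male replicate 5 they were -7.57, -8.02 and -7.17. In total mRNA the log2 fold changes were -7.44 for Yp1, -7.42 for Yp2 and -7.11 for Yp3. The antisense gene asRNA:CR45601 lies across Yp1 and had -5.71 (-7.58 without male replicate 5), and its reads cannot be separated from those of Yp1.

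Other genes of the list of yolk and sex-biased fat body genes moved in both directions. The gene fit, which encodes a secreted female satiety factor, had 1.76, 1.78, 0.934 and 3.10 CPM in male and 23.7, 21.7, 19.5 and 19.6 CPM in female TRAP (-3.45 ± 0.295, SE, FDR = 2.30e-26), and it overlaps asRNA:CR45046. The clock-controlled gene takeout, listed as to, had 159, 153, 93.9 and 157 CPM in male and 15.8, 23.5, 21.4 and 24.5 CPM in female TRAP (2.77 ± 0.209, SE, FDR = 4.63e-31). The lipase-like gene sxe2 had 18.3, 17.7, 14.2 and 22.9 CPM in male and 3.14, 4.81, 2.39 and 4.59 CPM in female TRAP (2.33, FDR = 1.93e-15). None of the 3 overlapped, and their total mRNA values of -3.66, 2.94 and 2.48 had the same direction. The glucosidase gene tobi was lower with overlapping groups (-1.02, FDR = 0.0455). The summed level of this list was 244-1164 CPM in male and 9766-17978 CPM in female TRAP, and 765-1398 CPM in male and 52375-70315 CPM in female total mRNA. How much of the TRAP signal of these genes came from mRNA outside tagged ribosomes was not tested.

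Of 14 tested photoreceptor markers 11 were higher in male TRAP and 0 lower, where 2.11% of all genes were higher, and 14 had positive log2 fold changes, with a median of 0.52 against -0.05 over all genes. The main rhodopsin gene ninaE had 3395, 4502, 3638 and 6348 CPM in male and 2204, 2441, 2755 and 3342 CPM in female TRAP (0.78, FDR = 0.0526), and Rh6, the rhodopsin of a subset of inner photoreceptors, had 106, 135, 99.4 and 248 CPM in male and 44.6, 72.0, 80.9 and 82.5 CPM in female TRAP (1.13, FDR = 0.0162). In both the lowest male library was above the highest female one and male replicate 5 was the highest. The others called were chp (1.38, FDR = 0.000124), norpA (1.12, FDR = 0.000998), inaC (1.02), ninaC (0.98), Arr1 (0.87), Rh4 (0.86), Arr2 (0.84), trpl (0.77) and trp (0.77), which encode proteins of phototransduction or, for chp, a surface protein of photoreceptors. The summed level was 6000-10987 CPM in male and 3772-6012 CPM in female TRAP (two-sided exact permutation p = 0.0571), so that they overlapped, with male replicate 5 highest. Without that library 11 markers were called and 11 had positive log2 fold changes, the median was 0.31, and Rh6 had 0.74. The number called was 7 without female replicate 4 and 6 by the quasi-likelihood test. In total mRNA the sums were 19064-26407 CPM in males and 16005-20192 CPM in females.

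The markers of other cell types were mixed. Glia markers summed to 195-358 CPM in male and 153-240.1 CPM in female TRAP (exact permutation p = 0.229), and 1 of 7 was higher, alrm (0.82, FDR = 0.119), which was not called without male replicate 5 (0.50). Fat body markers summed to 1102-1951 CPM in male and 927-1483 CPM in female TRAP (p = 0.8, exact permutation), with male replicate 5 highest, and 2 of 6 were higher, Pepck1 (1.79, FDR = 3.09e-08) and Lsd-1 (0.95, FDR = 0.00817). Without male replicate 5, 2 fat body markers were higher and 2 lower, and 5 muscle markers were lower. Muscle markers summed to 92.7-203 CPM in male and 116-376 CPM in female TRAP (p = 0.257, exact permutation), and 3 of 10 were lower in males, sls (-1.88), bt (-1.60) and Mlp60A (-1.15). Female replicate 3 was the highest library in each of these 3 genes, and without it sls had -1.25 and bt -1.004. Hemocyte markers held 0 calls among 3, and neuron markers 2 lower of 10, futsch (-0.78, FDR = 0.0181) and Rim. By the most abundant exon of each gene the neuron markers ran from -0.43 to 0.19, so both calls came from other exons. No list had its defining markers at 0 in all TRAP libraries. The part of these cell types in the differences above was not tested.

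**Figure D5:**
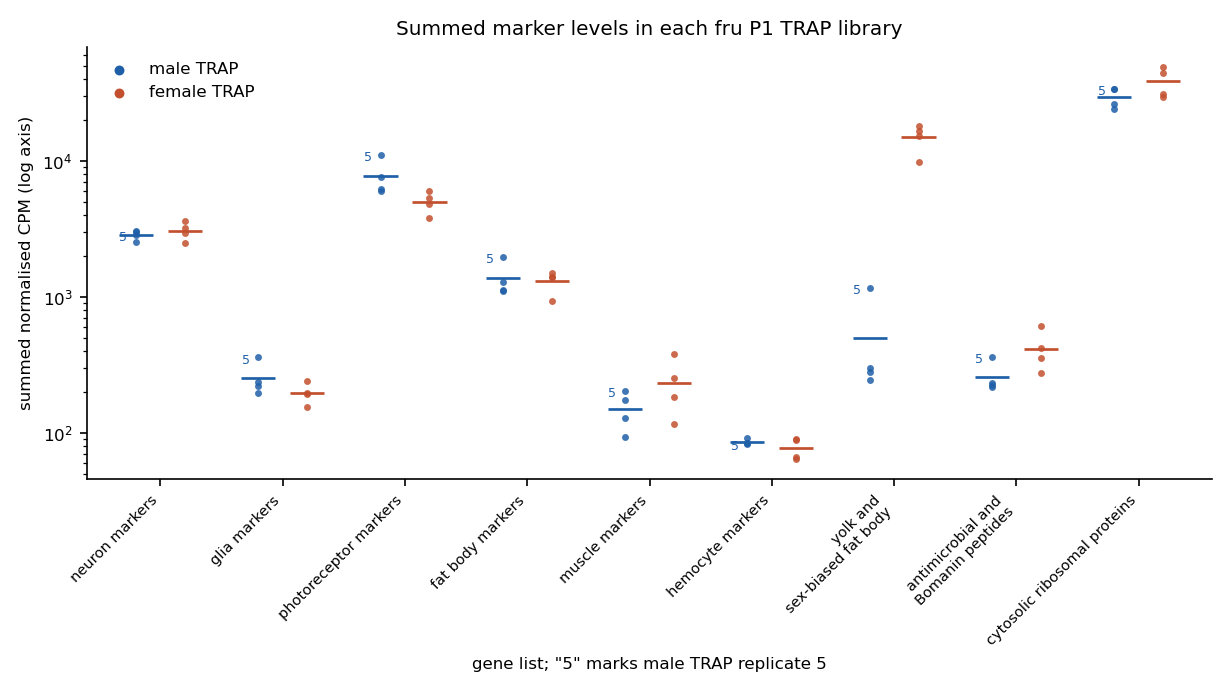
Summed normalised CPM of 9 gene lists in each TRAP library, male TRAP left of female TRAP, with bars at the group means and the digit 5 marking male TRAP replicate 5. That library is the highest male one for yolk and sex-biased fat body genes (1164 against 244-300 CPM), photoreceptor markers (10987 CPM) and antimicrobial and Bomanin peptides (361 CPM), while neuron markers overlap between the sexes.

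Several genes of innate immunity were lower in male TRAP. Of 23 tested antimicrobial and Bomanin peptide genes 7 were lower and 0 higher, where 2.29% of all genes were lower, with a median of -0.67. The antifungal peptide gene Drs had 2.51, 1.86, 2.42 and 3.31 CPM in male and 7.01, 12.6, 5.98 and 6.07 CPM in female TRAP, with no overlap (-1.62, FDR = 0.000173). Mtk (-1.35, FDR = 0.0376), BomBc3 (-1.21, FDR = 0.0132) and BomS1 (-1.10, FDR = 0.0279) were next. In total mRNA 26 of 29 members were lower in males, beside 17.4% of all genes. The number lower in male TRAP was 3 by the quasi-likelihood test, 5 with library totals alone and 14 without male replicate 5.

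Of 79 cytosolic ribosomal protein genes tested, 4 were lower and 0 higher in males, where 2.29% of all genes were lower, and all 79 had negative log2 fold changes, with a median of -0.33 (-0.23 with library totals alone, where 2 were positive). RpS29 had 174, 205.2, 154 and 160 CPM in male and 226, 252, 297 and 273 CPM in female TRAP (-0.55, FDR = 0.063), and RpL17 (-0.58), RpL7 (-0.55) and RpS5a (-0.52) were the others. The number lower was 0 by the quasi-likelihood test, 1 with library totals alone and 12 without male replicate 5. In total mRNA 75 of 79 were called lower in males, beside 17.4% of all genes, with a median of -0.65. No member was called among 66 nuclear OXPHOS subunits, 72 mitochondrial ribosomal proteins, 31 proteasome subunits and 17 vacuolar ATPase subunits, whose medians were between -0.10 and 0.03.

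Detoxification and odorant-binding genes included several of the largest male-higher values, beside 2.11% of all genes higher and 2.29% lower. Obp99b, an odorant-binding protein gene, had 59.4, 51.6, 40.97 and 79.0 CPM in male and 3.56, 6.85, 5.24 and 6.98 CPM in female TRAP (3.40 ± 0.259, SE, FDR = 2.76e-31), against 4.00 in total mRNA. Its relative Obp56e went the other way, with 5.98, 5.21, 3.91 and 6.996 CPM in male and 17.9, 46.1, 25.7 and 30.6 CPM in female TRAP (-2.41, FDR = 1.15e-12), and shares its interval with asRNA:CR44509 (-2.41). These were the only 2 calls among 17 odorant-binding genes. Of 43 cytochrome P450 genes 3 were higher, Cyp313a1 (2.95, FDR = 4.37e-16), Cyp4d14 (1.496) and Cyp4d2 (1.04), and 1 was lower, Cyp18a1 (-0.91), which inactivates ecdysone. Cyp313a1 had 24.7, 15.3, 11.6 and 23.6 CPM in male and 1.55, 2.60, 2.11 and 3.91 CPM in female TRAP, without overlap. An antisense gene across Cyp4d14, asRNA:CR45479, had 1.82. Among 22 glutathione S-transferase genes GstE7 was higher (1.36, FDR = 0.0118). Its exon was tested in only 3 of the runs with a library left out, where its FDR reached 0.0960.

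The remaining genes with the largest differences have varied or unknown roles. CG45087, whose exon has the same interval as Pepck1, a gluconeogenic enzyme gene, had 298, 282, 249 and 471 CPM in male and 55.4, 109, 98.6 and 127 CPM in female TRAP (1.79, FDR = 3.09e-08). CG13133 had 6.99, 5.64, 4.98 and 4.73 CPM in male and 116, 28.0, 25.0 and 41.3 CPM in female TRAP (-3.22, FDR = 1.21e-09). CG45105 had 1.98, 3.18, 1.97 and 4.19 CPM in male and 20.9, 6.25, 6.43 and 7.60 CPM in female TRAP (-1.85, FDR = 0.00347). In both of these genes female replicate 2 was the highest library, and without it the log2 fold changes were -2.45 for CG13133 and -1.22 for CG45105. Smaller values with all male libraries lower were those of the iron-binding transferrin gene Tsf1 (-1.45), CG3597 (-1.36), CG32683 (-1.29) and CG9123 (-1.22). In CG3597 the highest male library, replicate 5, and the lowest female library, replicate 2, both rounded to 10.7 CPM.

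Exons above 2 CPM in all 4 libraries of 1 sex and in none of the other could not enter the main test, which needs 5 libraries. There were 88 such exons in males, in 67 genes, and 49 in females, in 35 genes. Since these exons were chosen by their difference, their values are a description with no test. In males the highest were another lncRNA:roX1 exon (40.9, 12.99, 8.82 and 17.7 CPM in male and 0.271, 1.05, 0 and 0.794 CPM in female TRAP), CG11854, which overlaps bam, lncRNA:roX2, a second exon of Cyp313a1 and Cyp4d21. The P450 gene Cyp4d21, also known as sxe1, had 9.02, 7.21, 6.47 and 11.4 CPM in male and 0.155, 0.221, 0.342 and 0.227 CPM in female TRAP (log2 fold change 5.18). Leaving out male replicate 4, female replicate 2 or female replicate 3 gave 143, 154 and 233 male exons, and leaving out male replicate 5 or female replicate 2 gave 81 and 82 female exons. In females sordd2 had 0, 0.214, 0.311 and 0.168 CPM in male and 13.6, 13.3, 19.5 and 12.6 CPM in female TRAP (-6.29). The odorant-binding gene Obp99a had 0, 0.143, 0.208 and 0.963 CPM in male and 12.2, 13.2, 12.6 and 15.9 CPM in female TRAP (-5.35). Male libraries were near the level of 3 counts in sordd2 and, save replicate 5, in Obp99a. The others were CG34382 (-3.61), which overlaps Taf2, and rost (-4.12).

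Fold changes differed along the transcript. In 4503 genes with at least 3 tested exons, the most 3′ exon had a higher log2 fold change than the most 5′ exon in 23.6%, with a median difference of -0.18. Male TRAP was thus relatively lower at 3′ ends. The part of this shift in single calls, in either direction, was not tested.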

How the data were processed

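Per the labels, poly(A)+ RNA of the TRAP fraction and of the lysate was made into libraries with a non-directional kit, so strand is not known. The authors aligned reads with STAR 2.7.2a to dm6, used SAMtools 1.2 and counted reads per exon with featureCounts, and the deposited values are raw counts per exon entry. Counting settings for overlapping exons are not given in the sources used here, so library totals are sums over entries. A deposited RPM table repeats the counts and was not used. Each file held 87508 entries of 17753 genes, 17626 with a symbol, and 5.91% of entries duplicated the values of a second entry within their gene. The annotation held the interval of 98.9% of entries.

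Following the methods of the study, an exon entered when its CPM passed 2 in a share of 0.6 or more of the compared libraries, which is 5 of 8. TMM factors, dispersions by trend and by tag, and the exact test were those of edgeR 4.0.16 (R 4.3.3), and p-values were adjusted by Benjamini-Hochberg over every exon that entered. The threshold was FDR under 0.2. Standard errors come from the quasi-likelihood fit. Total mRNA was tested likewise. Interactions used the quasi-likelihood test over 16 libraries, and exon shares used diffSpliceDGE at FDR under 0.05 on exons above 2 CPM in 4 libraries without repeated entries. Fits were tested on simulated data. Depth was 15353672 to 25419045 counts per TRAP library, and limits set from 3 counts cover counting error only. The labels call the 4 libraries per group biological replicates. In females the TRAP and total mRNA libraries of the same number deviated together (r of 0.48, 0.27, 0.59 and 0.42 for replicates 2 to 5), and in males they did not all do so (-0.03, 0.10 and 0.23 for replicates 1, 2 and 4).

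Members and gene lists were chosen with earlier results of these data known. Lists are described by counts and by the median log2 fold change, with 1 exon per gene, and no list was tested. Named were fru, Sxl, tra, dsx, msl-2, lncRNA:roX1, lncRNA:roX2, Yp1, Yp2, Yp3 and RpL10Ab, the 15 genes per direction with the largest called change among exons whose groups lay apart and whose higher group averaged at least 10 CPM, genes called in both directions, up to 4 called members of each list, the 10 genes lowest in p for exon share and for the interaction, and the 5 highest exons limited to each sex. The other neuropeptide, photoreceptor and yolk list members and cv-c were chosen for naming once their values had been seen. The fits were repeated with DESeq2 1.42.0, the quasi-likelihood test, a replicate block, RLE factors or library totals, other filters and thresholds, and without each library in turn.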

Additional observations from a re-analysis of the deposited data

Results flagged for a closer look

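In 13 of 130 groups of male or female TRAP values looked at, a library stood apart from the other 3 of its group. The measure was the gap to its nearest neighbour over the range (limit 0.829 for 4 values). For a single group chance gives about 1 in 20. The groups are not independent, since Yp1 shares reads with asRNA:CR45601 and is part of the summed yolk list. Of the 13, 6 were male TRAP replicate 5. In Yp1 it had 498 CPM, against 4.97-79.8 CPM in the other male TRAP libraries. In Yp2 it had 17.2 CPM (others 0.352-1.87 CPM), in Yp3 87.8 CPM (others 4.22-14.1 CPM), and in asRNA:CR45601, which overlaps Yp1, 369.6 CPM. It was also alone in the summed yolk and sex-biased fat body genes, at 1164 CPM, and in the summed antimicrobial and Bomanin peptides, at 361 CPM. Without that library the 2 higher and 5 lower genes of the yolk list numbered 2 and 5.

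Female TRAP replicate 2 stood apart in 4 exons. It had 5744 CPM in Yp1, below the other female libraries, and 4252 CPM in asRNA:CR45601. It had 20.9 CPM in CG45105 (others 6.25-7.60 CPM) and 10.7 CPM in CG3597 (others 20.7-22.5 CPM). Male TRAP replicate 4 had 93.9 CPM in takeout (to), where the other male libraries had 153-159 CPM. Male TRAP replicate 1 had 3.17 CPM in a dsx entry at chr3R:7931168-7935653, which spans the female-specific exon, and 91.5 CPM in the summed hemocyte markers.

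In 11 genes the sex difference in TRAP differed from that in total mRNA by the interaction test, given as the log2 difference in TRAP minus that in total mRNA. It was positive in Crz (3.08), Ilp2 (3.14), Ilp3 (2.30), Dh44 (2.21, in the entry at chr3R:9648983-9649723), CG5160 (2.13), ITP (1.62), Capa (1.62), cv-c (1.28) and CG42394 (1.24), and negative in SerT (-1.31) and Orcokinin (-1.01).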

How the results depend on the processing

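Against 179 genes higher and 194 lower in male TRAP, the quasi-likelihood test of edgeR called 76 and 73, all of them among the 179 and 194. No filter on low counts gave 430 and 517, FDR under 0.05 gave 89 and 88, an added 2-fold change gave 91 and 82, and 1 exon per gene gave 116 higher and 166 lower. DESeq2 called 175 and 261, RLE factors 173 and 234, and library totals 258 and 134. Leaving out 1 library gave 99 to 370 higher and 87 to 419 lower genes. Between male and female TRAP libraries of the same number, deviations had correlations of -0.18, -0.04 and 0.22 for numbers 2, 4 and 5. Not every sample correlated best with its own number. Whether the numbers pair the samples was not tested further. A replicate block in the quasi-likelihood test gave 198 higher and 105 lower genes and 12 exons of differing share. The 5 exons of differing share became 2 with a filter met in all 8 libraries, which leaves out the fru and dsx exons, 14 at FDR under 0.2, and 1 to 8 when a library was left out. The last range includes runs in which exons above 2 CPM in 1 sex only left the test by the filter. Exons limited to males were 42 and to females 26 with a minimum of 5 CPM, and 102 to 233 and 54 to 82 when a library was left out. The 16 interaction exons were 1 at FDR under 0.05, 66 with the replicate block and 10 to 15 when a TRAP library was left out. The interaction was not repeated without a total mRNA library. Genes called in total mRNA were 1844 to 3618 when a library was left out.

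Of 93 named exons, 0 changed direction in an alternative run that tested them. The quasi-likelihood test took 34 past the threshold, the block 23, library totals 6 and no filter 5, while DESeq2, RLE factors and the filters on 4 and 8 libraries took 0 of those they tested. Of the 90 that were called, 56 were called in every run with a library left out that tested them, and 49 under every alternative that tested them. Some exons failed the filter in part of these runs. The longer fru entry and the exons of Lgr3, Shab and GstE7 were each tested in only 3 of the 8 runs with a library left out. In counts added after seeing the data, neuropeptide genes higher in male TRAP were 12 and lower 4 by the quasi-likelihood test, and 11 to 15 and 3 to 5 when a library was left out. Photoreceptor markers higher in male TRAP were 6 by the quasi-likelihood test and 7 to 12 when a library was left out.

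With 4 libraries a sex, a single value cannot reach an exact p under 0.0286. Exons under 2 CPM in most libraries were not tested, so the low exons of dsx and fru are described without a test. Repeated and overlapping entries count the same reads more than once, and antisense or overlapping genes cannot be separated without strand.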
